A study of Homo sapiens with 4 samples.

Results

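Transcripts of 10 regulators of the epithelial-mesenchymal transition (EMT), the change in which epithelial cells loosen their junctions and take on a migratory form, were followed in parental Panc1 cells and in 3 gemcitabine-resistant clones of that line. Their probes were found by symbol, as every array probe named ZEB1, ZEB2, SNAI1, SNAI2, TWIST1, ELF3, GRHL2, OVOL1, ESRP1 or ESRP2. The rule found 11 of the 24460 gene probes, 2 for TWIST1 and 1 for each other gene. Panc1 is an established line from a human pancreatic ductal carcinoma, and gemcitabine is a deoxycytidine analogue used against that cancer. The parental line was measured on 1 array, and the clones named GR1, GR3 and GR4 in the sample titles on 1 array each. Per the labels, the clones came from 1 selection of the parental line, in which gemcitabine went from 2 ng/ml to 30 ng/ml in 2 months and the survivors were cloned by limiting dilution. All cells grew in medium with 10% serum, and the labels do not say whether drug was present at harvest. The treatment text of the labels lists other clone numbers than the titles, and the titles were followed.

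SNAI1, SNAI2, ZEB1 and ZEB2 encode zinc finger repressors that bind E-box sequences in the promoters of epithelial genes such as CDH1, which encodes E-cadherin, and TWIST1 encodes a basic helix-loop-helix factor that works in the same programme. ELF3, an ETS family factor, GRHL2, a grainyhead factor, and OVOL1, a zinc finger repressor of the EMT factors, belong to the opposing epithelial programme, and GRHL2 and ZEB1 repress each other. ESRP1 and ESRP2 encode RNA-binding proteins that set the epithelial splice forms of transcripts such as CD44, CTNND1 and FGFR2, and ZEB1 represses ESRP1. In pancreatic cancer models these factors are known for their part in invasion and in the response to drugs, and Panc1 is commonly described as a line with mesenchymal traits.

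Each array was a Toray 3D-Gene chip read in 1 colour. Between 91.5% and 93.7% of gene probes lay above the limit set by the blank spots (their mean plus 2 SD). Log2 signals correlated across 22796 probes at 0.989 to 0.994 between clones and at 0.964 to 0.971 between the parental line and a clone, all pairs sharing the same probes. Of the ductal markers KRT7, KRT8, KRT18, KRT19 and SOX9, the 4 with a probe were above the limit on all 4 arrays, and their summed signal was 31298 units in the parental line and from 43429 to 61200 in the clones. KRT18 gave most of that sum, and KRT19 went the other way, with log2 signals of 13.34 in the parental line and 12.28, 13.04 and 12.26 in GR1, GR3 and GR4. The 5 fibroblast markers were all above the limit on every array and summed to 659 units in the parental line and from 449 to 821 in the clones. Of 4 leukocyte markers 2 were above the limit on all arrays (summed 40.9 units, and 20.8 to 34.0 on the clones), of 4 endothelial markers 3 (45.1, and 45.2 to 50.2), and of 3 acinar and islet markers 1 (9.96, and 7.17 to 9.47). The part of these transcripts in the results was not tested. In bulk RNA, fewer cells of a kind and less RNA per cell cannot be told apart.

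All values below are log2 signals after subtraction of the blank mean and quantile normalization, unless intensity units are named, and levels are compared within a probe only. Differences are the mean of the 3 clones minus the parental array, with the standard error, 95% interval and Benjamini-Hochberg adjusted p of limma over all 22796 tested probes. The 1 parental array is assumed to vary as the clones do, and an exact permutation of 1 array against 3 could not go below p = 0.25. A gene is said to rise or fall where the adjusted p was under 0.05. By this test 674 of 16592 genes were called, 2.17% of all genes higher and 1.89% lower in the clones. The smallest adjusted p of any probe was 0.0442, so the adjusted p of every call lay between that value and 0.05. Of the calls 53.4% were higher, and this share was 36.7% with a normexp model of the spot and background columns, 68.8% with median scaling and 70.6% in the authors' deposited table, used as it stands.

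Of the 10 genes, ELF3 fell and none rose by limma. At an unadjusted p under 0.05 there were 3 (ELF3 and OVOL1 lower, SNAI2 higher), beside 31.9% of all genes. At least 2-fold differences in all 3 clones were found for SNAI2, higher, where 3.66% of all genes were, and for ELF3, lower, where 3.60% were. All 3 clones lay above the parental array for 5 genes (SNAI1, SNAI2, ZEB1, GRHL2 and ESRP2), beside 35.3% of all genes, and below it for 4 (ELF3, OVOL1, ESRP1 and ZEB2), beside 37.8%. For TWIST1 the parental value lay among the clones. The median difference was 0.15 over the 10 genes and −0.02 over all genes tested, and the median size of the difference, without its sign, was 0.68 and 0.34. All 11 probes were above the limit on all 4 arrays.

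**Figure D1:**
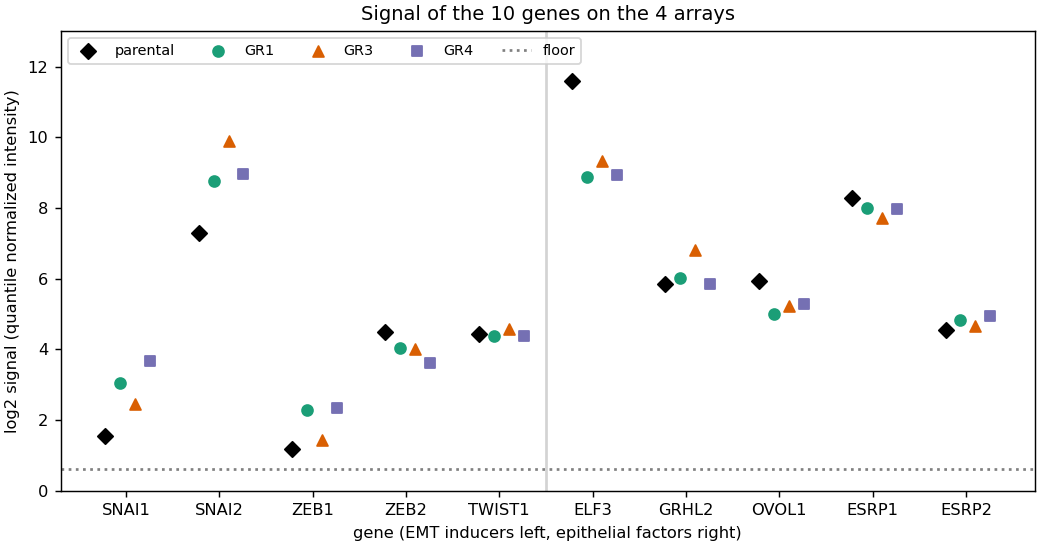
Log2 signal of the 10 genes on each of the 4 arrays, 1 point per array, with the parental array and the clones GR1, GR3 and GR4 in separate colours. ELF3 stands at 11.59 in parental cells and between 8.87 and 9.33 in the clones, and SNAI2 at 7.30 and 8.77 to 9.91. Levels of different genes come from different probes and are not comparable.

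ELF3 was the only one of the 10 genes past the threshold. It lies at chr1:202010587-202017183 in GRCh38.p14. Its probe read 2619 intensity units above the blank spots in parental cells, and 521, 655 and 495 in GR1, GR3 and GR4. After normalization the log2 signals were 11.59 on the parental array and 8.87, 9.33 and 8.93 on GR1, GR3 and GR4. All clones lay far below the parental line, and their range of 0.46 was wider than that of 72.1% of genes. The difference was −2.54 ± 0.24 (95% interval −3.23 to −1.86), which is 5.83-fold lower in the clones, with an adjusted p of 0.0444 by limma. Its size was larger than that of 99.1% of genes. The call was lost when any clone was left out (leaving out GR1 gave an adjusted p of 0.200, GR3 0.0758 and GR4 0.221), when no gene in the table passed.

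The ELF3 promoter is shown because this gene carried the clearest difference and because E-boxes are the sites that SNAI and ZEB proteins bind. The window, chr1:202010337-202010636 on the plus strand of GRCh38.p14 in RefSeq's sequence, runs from 250 bases before the start of the gene to 50 after it. Capitals mark an E-box, searched as CAGGTG on both strands (CACCTG on the strand shown), here at 120 to 115 bases before the start.
ELF3 promoter: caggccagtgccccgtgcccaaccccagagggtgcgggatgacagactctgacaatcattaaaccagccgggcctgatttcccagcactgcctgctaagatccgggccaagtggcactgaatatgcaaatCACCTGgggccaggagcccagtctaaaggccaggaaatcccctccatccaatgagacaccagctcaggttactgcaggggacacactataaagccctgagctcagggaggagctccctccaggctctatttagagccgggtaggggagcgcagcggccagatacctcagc
That motif was present in 20.6% of 35116 promoter windows of this length, so a match in 1 window is common. A match describes the letters and says nothing of binding. No GRHL site (AACCGGTT, present in 0.134% of windows) and no ETS core (CCGGAA or TTCCGG, present in 17.2%) was found in the ELF3 window.

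The Snail family genes had the largest positive differences of the 10, and neither passed the test. SNAI2, which encodes Slug (chr8:48917598-48921429), read 140 units on the parental array and 486, 977 and 503 on GR1, GR3 and GR4. On the log2 scale this was 7.30 against 8.77, 9.91 and 8.95. All clones lay at least 2-fold above the parental line, and GR3 stood more than 1 log2 unit above GR1. The difference was 1.91 ± 0.53 (0.37 to 3.46), a 3.77-fold higher mean signal with an adjusted p of 0.121. With normexp of the spot and background columns it was 1.15. The SD of the clones was 0.61, and their range was wider than that of 97.1% of genes. In the authors' deposited table, scaled to a common median, the difference computed here was 2.11 with an adjusted p of 0.0409.

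SNAI1, which encodes Snail (chr20:49982980-49988886), was dim. It read 2.89 units on the parental array, 2.18 times the limit there, and 8.67, 5.81 and 11.7 units on GR1, GR3 and GR4. The log2 signals were 1.53 on the parental array and 3.03, 2.45 and 3.67 on the clones. Every clone was above the parental value, and the clones differed among themselves by up to 1.22, a range wider than that of 97.8% of genes. The difference was 1.52 ± 0.54 (−0.03 to 3.07), with an adjusted p of 0.171. It shrank to 0.09 when normexp with an offset of 50 units, applied to the spot and background columns, replaced plain subtraction, and to 0.15 when it was applied to blank-subtracted signals.

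GR3 held the highest SNAI2 and the lowest SNAI1 of the clones, and GR4 the highest SNAI1. With 1 array per clone, differences between clones have no replicate check.

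The ZEB genes pointed in opposite directions, within error. ZEB1 (chr10:31318417-31529804) read 2.26 units on the parental array, 1.71 times the limit, and 5.21, 2.99 and 4.47 units on GR1, GR3 and GR4. Its log2 signals were 1.19 against 2.29, 1.44 and 2.35, so GR1 and GR4 stood together and GR3 stayed near the parental value. The difference was 0.83 ± 0.45 (−0.47 to 2.14), adjusted p = 0.306. ZEB2 (chr2:144384081-144520119) had log2 signals of 4.50 on the parental array and 4.03, 4.02 and 3.62 on the clones. All clones lay below the parental line, by −0.61 ± 0.23 on average (−1.26 to 0.04), adjusted p = 0.183. Under these forms of normexp, which compress dim signals, ZEB1 had 0.04 and 0.05, and ZEB2 −0.04 and −0.16. Both intervals include 0, and the interval of ZEB1 also includes more than a 4-fold higher level.

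TWIST1 (chr7:19113047-19117636) showed no difference that these arrays could resolve. The brighter of its 2 probes read 4.42 on the parental array and 4.38, 4.58 and 4.38 on GR1, GR3 and GR4. The parental value lay among the clones, and the difference was 0.02 ± 0.15 (−0.40 to 0.44), adjusted p = 0.931. Its other probe read 3.64 on the parental array and 3.28, 3.60 and 3.03 on the clones, a difference of −0.33 ± 0.27 with an adjusted p of 0.468.

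**Figure D2:**
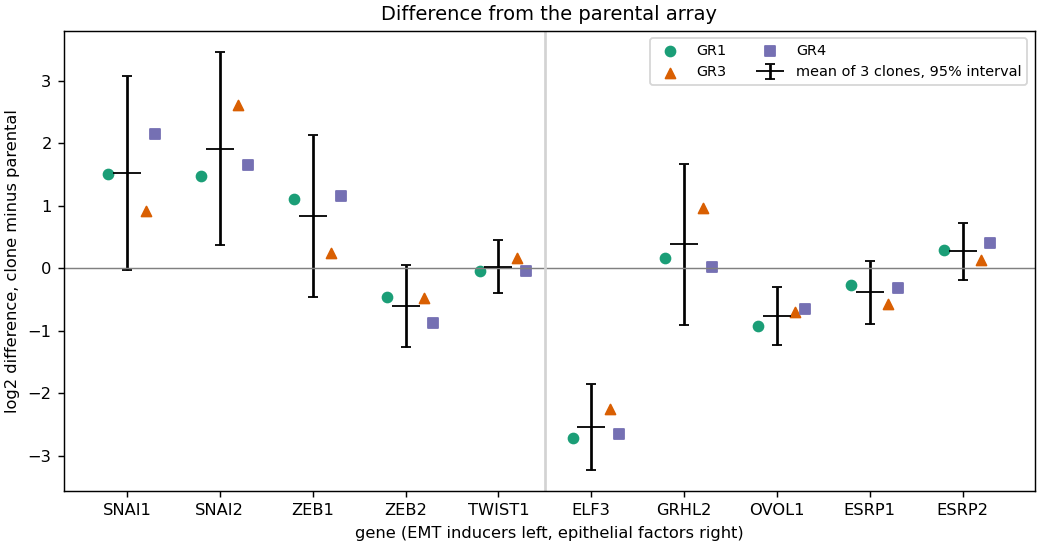
Log2 difference of each of the 10 genes between the clones and the parental array. Points are the 3 clones, and the bar gives the limma mean with its 95% interval. ELF3 lies at −2.54, SNAI2 at 1.91 and SNAI1 at 1.52, and the intervals of OVOL1, SNAI2 and ELF3 leave out 0.

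Among the other epithelial transcription factors, OVOL1 came closest to the threshold. OVOL1 (chr11:65787063-65797214) had log2 signals of 5.93 on the parental array and 5.01, 5.23 and 5.28 on GR1, GR3 and GR4. The clones lay within 0.27 of each other and all below the parental line. The difference was −0.76 ± 0.16 (−1.22 to −0.30), 1.69-fold lower in the clones, with an adjusted p of 0.0837. With normexp on blank-subtracted signals it was −0.36, with an adjusted p of 0.0497. With normexp of the spot and background columns it was −0.31.

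GRHL2 (chr8:101492439-101681200) had log2 signals of 5.85 on the parental array and 6.02, 6.81 and 5.86 on the clones. GR1 and GR4 stood at about the parental level, and GR3 stood apart above them. The difference was 0.38 ± 0.45 (−0.91 to 1.67), adjusted p = 0.616, and without GR3 it was 0.09. The clone with the highest GRHL2 was the one with the lowest ZEB1 and the highest SNAI2, an observation on 1 array.

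The splicing factors had small differences, and neither passed the test. ESRP1 (chr8:94641174-94707466) had log2 signals of 8.28 on the parental array and 8.01, 7.71 and 7.97 on GR1, GR3 and GR4, a difference of −0.39 ± 0.17 (−0.89 to 0.12), adjusted p = 0.241. Its order depended on the scaling. Before normalization it read 269 units on the parental array and 283, 213 and 253 on the clones, so that GR1 stood above the parental line, and with median scaling the difference was −0.16. ESRP2 (chr16:68229033-68236127) had log2 signals of 4.54 on the parental array and 4.83, 4.66 and 4.94 on the clones. All clones were slightly higher, by 0.27 ± 0.16 (−0.18 to 0.73), adjusted p = 0.336.

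The spread among clones was uneven across the 10 genes. SNAI1, SNAI2, GRHL2 and ZEB1 had a range over the clones wider than that of 94.3% of genes or more, the ranges of ELF3 and ZEB2 were wider than those of 72.1% and 66.3% of genes, and the ranges of TWIST1, OVOL1, ESRP2 and ESRP1 were at or below the middle of all genes. The median range was 0.43 over the 10 genes and 0.30 over all genes.

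The genes whose clone-by-clone differences lay nearest to those of ELF3 were SPTSSA (a subunit of serine palmitoyltransferase), RIGI (a sensor of viral RNA), DAPK2 (a calmodulin-regulated kinase), MT1X (a metallothionein) and BPIFB1 (a secreted protein of the airway lining). Nearness was the Euclidean distance over the 3 clones among 15895 genes above the limit on all arrays, and it ran from 0.158 to 0.196. Their mean differences were −2.60, −2.55, −2.48, −2.45 and −2.57, against −2.54 for ELF3. All 5 share with ELF3 the same parental array and the same normalization.

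Other genes of the same programmes were read from lists. Among 17 other EMT-inducing factors tested, of 20 listed, ETS1 rose and none fell, beside 2.17% and 1.89% of all genes. The median difference was −0.20, but −0.02 with normexp of the spot and background columns. ETS1, an ETS factor that activates matrix protease genes, read 5.42 on the parental array and 8.04, 7.66 and 8.10 on GR1, GR3 and GR4. The clones were alike and all far above the parental line. The difference was 2.51 ± 0.23, 5.71-fold higher, adjusted p = 0.0442. HMGA2, a chromatin factor that induces SNAI1 and TWIST1, read 4.57 against 6.41, 5.79 and 6.31, a difference of 1.60 ± 0.30 with an adjusted p of 0.0721. FOXC1, a forkhead factor, read 9.28 against 8.06, 8.30 and 8.18, a difference of −1.09 ± 0.14 with an adjusted p of 0.0517. In this list 4 genes were above the parental array in all clones (35.3% of all genes were) and 7 below (37.8%), and 3 in each direction had an unadjusted p under 0.05 (31.9% of all genes in either direction). The difference of HMGA2 was 0.45 and that of FOXC1 −0.46 when normexp was applied to the spot and background columns. HMGA2 passed the test under 2 of 12 alternatives and FOXC1 under 5.

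Of 16 other epithelial identity factors tested, of 21 listed, none passed limma's threshold, and at an unadjusted p under 0.05 there were 2 higher and 3 lower, beside 31.9% of all genes in either direction. The median difference was −0.05. KLF4, a Kruppel-like factor of differentiated epithelium, was 2-fold lower in every clone (9.75 on the parental array against 8.22, 8.72 and 8.31, a difference of −1.33 ± 0.25, adjusted p = 0.0726). GRHL1, a relative of GRHL2, read 4.67 against 3.64, 3.55 and 3.75, a difference of −1.03 ± 0.13 with an adjusted p of 0.0517. KLF5 had a difference of −0.83 ± 0.18 with an adjusted p of 0.0863. So the largest differences of this list were negative while its median lay near that of all genes. Their size depended on the processing. With normexp of the spot and background columns KLF4 had −0.55, GRHL1 −0.25 and KLF5 −0.76, and with median scaling −1.06, −1.03 and −0.55. GRHL1 passed the test under 5 of 12 alternatives, KLF4 under 1 and KLF5 under 0.

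The epithelial genes that SNAI and ZEB proteins are known to repress were mostly lower. Of 29 tested, of 31 listed, 23 lay below the parental array in all 3 clones (37.8% of all genes did) and 3 above (35.3% did). At an unadjusted p under 0.05 there were 16 lower and 0 higher, beside 31.9% of all genes in either direction. By limma 1 fell and none rose, beside 1.89% and 2.17% of all genes. The median difference was −0.57, against −0.02 over all genes, and single genes ran from −1.97 to 0.39. The median depended on the processing, at −0.35 with median scaling, −0.31 with no normalization and −0.29 with normexp of the spot and background columns, and 20 to 25 genes lay below the parental array in all clones under every alternative. Between 0 and 10 genes of the list were called lower, 10 of them with normexp on blank-subtracted signals. TJP3, which encodes the tight junction scaffold ZO-3, fell. It read 8.61 on the parental array and 6.67, 6.62 and 6.65 on the clones, which were nearly equal. The difference was −1.97 ± 0.11, 3.91-fold lower, adjusted p = 0.0442. Of its other probes, 1 gave −1.43 ± 0.16 and 1 gave −0.09 ± 0.17, so the probes disagreed, and their mean gave −1.16. CLDN4, a tight junction claudin, read 11.61 against 10.29, 10.21 and 10.88 (−1.15 ± 0.33, adjusted p = 0.125). RAB25, an epithelial recycling GTPase, read 8.90 against 7.66, 7.89 and 8.03 (−1.04 ± 0.19, adjusted p = 0.0687). RAB25 passed the test under 2 of 12 alternatives and CLDN4 under 0. CDH1 itself differed little, at 8.39 against 8.07, 8.10 and 8.11, a difference of −0.30 ± 0.10 with an adjusted p of 0.169. It was −0.06 with median scaling and −0.47 with normexp of the spot and background columns. CDH1 passed the test under 1 of 12 alternatives, normexp on blank-subtracted signals (−0.26, adjusted p = 0.0380 by limma).

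The promoter of TJP3 is shown because it was the called gene of that list. It has 2 windows in RefSeq's table, and the second, chr19:3721487-3721786 on the plus strand of GRCh38.p14, held the E-box CAGGTG at 7 to 2 bases before the start, in capitals.
TJP3 promoter, second window: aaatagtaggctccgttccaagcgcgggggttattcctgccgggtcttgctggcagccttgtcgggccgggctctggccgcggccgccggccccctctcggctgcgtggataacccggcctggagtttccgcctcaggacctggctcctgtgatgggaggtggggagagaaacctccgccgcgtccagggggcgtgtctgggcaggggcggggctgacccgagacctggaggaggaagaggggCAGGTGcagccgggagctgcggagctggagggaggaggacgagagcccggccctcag
In this list 12 of 15 genes with a promoter window held the motif, against 24.1% of 27305 genes. The list was drawn from known targets of these repressors, many of them recognised by such E-boxes, so its share is not independent evidence.

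**Figure D3:**
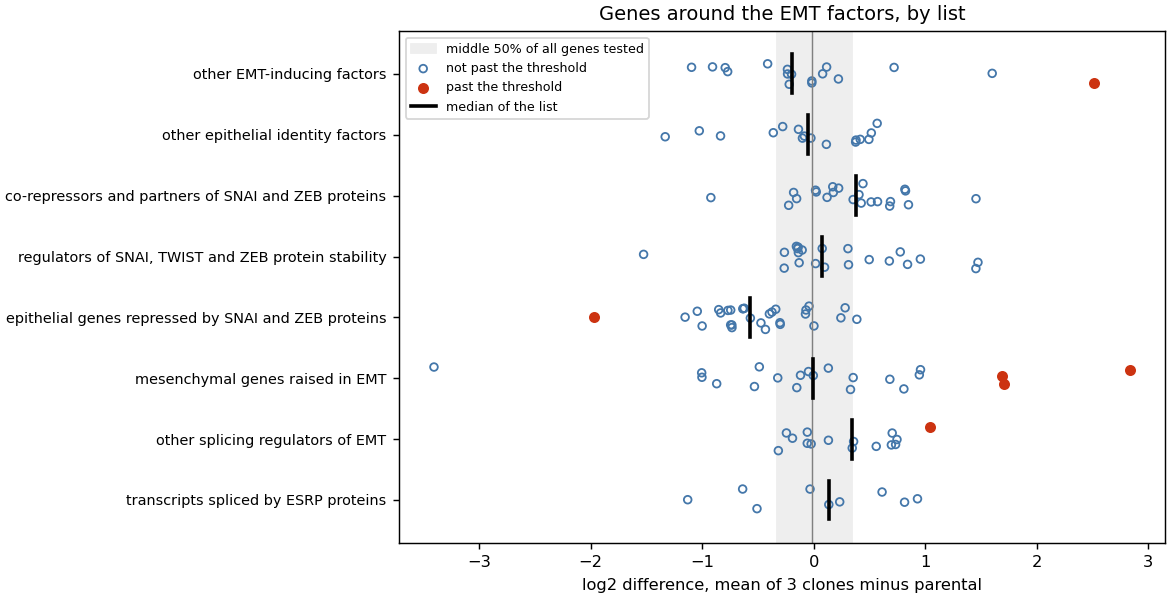
Log2 difference between the clones and the parental array for each tested gene of 8 lists, 1 point per gene with a vertical scatter added for legibility, and a line at the median of each list. The grey band is the interquartile range of all genes tested. The epithelial genes repressed by SNAI and ZEB proteins have a median of −0.57, and the mesenchymal genes spread from −3.41 to 2.84 around a median near 0.

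The mesenchymal genes had no common direction. Of 21 tested, of 22 listed, 3 rose and none fell, beside 2.17% and 1.89% of all genes. By limma 6 were higher and 3 lower at an unadjusted p under 0.05, beside 31.9% of all genes in either direction. All clones lay above the parental array for 9 and below it for 6, beside 35.3% and 37.8% of all genes. The median difference was −0.0030, and 0.33 with the mean of the probes of a gene. Some of the list were dim. THY1 and MMP9, both counted as above, stood at the floor on the parental array (0.61 on the log2 scale). COL1A1 read 1.89 there, COL1A2 1.24 and COL3A1 1.77. VIM, the intermediate filament of mesenchymal cells, rose from 8.59 on the parental array to 11.61, 11.37 and 11.31, a difference of 2.84 ± 0.17 (7.14-fold, adjusted p = 0.0442). AXL, a receptor tyrosine kinase, rose from 8.17 to 9.76, 9.90 and 9.96 (1.71 ± 0.14, adjusted p = 0.0442). MSN, which encodes the cytoskeletal linker moesin, rose by 1.69 ± 0.15 (adjusted p = 0.0442), but its other probe gave 0.18 ± 0.11. FN1, fibronectin, was lower in every clone and near the threshold. It read 8.64 on the parental array and 4.82, 5.80 and 5.08 on the clones, a difference of −3.41 ± 0.45 with an adjusted p of 0.0517. It passed the test under 5 of 12 alternatives, with an adjusted p down to 0.0121, and was −1.78 with normexp of the spot and background columns.

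Co-repressors and partners through which SNAI and ZEB proteins act were tested for all 22 listed genes. None passed limma's threshold. At an unadjusted p under 0.05 there were 7 higher and 1 lower, beside 31.9% of all genes in either direction. All clones lay above the parental array for 15 and below it for 3, beside 35.3% and 37.8% of all genes. The median difference was 0.38, but 0.15 with normexp on blank-subtracted signals and 0.048 with normexp of the spot and background columns, where 9 lay above and 4 below. PRMT5, an arginine methyltransferase that joins SNAI1 in a repressor complex, read 6.96 on the parental array and 8.62, 8.26 and 8.38 on the clones, a difference of 1.46 ± 0.19 with an adjusted p of 0.0511. AJUBA, the LIM protein that bridges the pair, had a difference of 0.85 ± 0.21 (adjusted p = 0.102). KAT2B, an acetyltransferase that binds ZEB1, had −0.92 ± 0.15 (adjusted p = 0.0603). PRMT5 passed the test under 6 of 12 alternatives, KAT2B under 3 and AJUBA under 1.

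Among 21 tested regulators of the stability of the SNAI, TWIST and ZEB proteins, of 23 listed, none passed limma's threshold, with 8 higher and 1 lower at an unadjusted p under 0.05, beside 31.9% of all genes in either direction. The median was 0.08, with 10 genes above and 8 below the parental array in all clones, beside 35.3% and 37.8% of all genes. Median scaling gave 0.19 and leaving out normalization 0.23, where 13 lay above and 1 below. The lysyl oxidase-like genes, whose products stabilise SNAI1, lay on opposite sides. LOXL2 read 8.14 on the parental array and 6.35, 7.16 and 6.33 on the clones (−1.53 ± 0.42, adjusted p = 0.120). LOXL3 read 1.81 against 3.40, 3.05 and 3.34 (1.46 ± 0.19, adjusted p = 0.0517). It passed the test under 5 of 12 alternatives, and its difference was 0.03 and 0.15 under the 2 forms of normexp. LATS2, a Hippo kinase that phosphorylates SNAI1, read 4.06 against 5.12, 6.03 and 5.46 (1.47 ± 0.41, adjusted p = 0.121). Protein levels were not measured.

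On the side of splicing, 15 of 16 listed regulators beside the ESRP genes were tested. SRSF1 rose and none fell, beside 2.17% and 1.89% of all genes. In this list 7 were higher and 0 lower at an unadjusted p under 0.05, beside 31.9% of all genes in either direction. All clones lay above the parental array for 8 and below it for 3, beside 35.3% and 37.8% of all genes. The median difference was 0.35, but 0.15 with normexp on blank-subtracted signals and 0.10 with normexp of the spot and background columns. SRSF1, a serine/arginine-rich factor, read 9.86 on the parental array and 10.86, 10.90 and 10.94 on the clones (1.04 ± 0.11, adjusted p = 0.0456). CELF1 had a difference of 0.75 ± 0.14 (adjusted p = 0.0683) and PTBP1, the polypyrimidine tract binding protein, 0.74 ± 0.13 (adjusted p = 0.0659). CELF1 passed the test under 3 of 12 alternatives and PTBP1 under 4. Of 9 tested transcripts that ESRP proteins splice, of 10 listed, none passed limma's threshold, and 3 were higher and 1 lower at an unadjusted p under 0.05, beside 31.9% of all genes in either direction. CTNND1, p120 catenin, had −1.13 ± 0.42 (adjusted p = 0.181), ENAH, an actin regulator, 0.93 ± 0.12 (adjusted p = 0.0510), and CD44, the hyaluronan receptor, 0.82 ± 0.24 (adjusted p = 0.129). ENAH passed the test under 6 of 12 alternatives and CD44 under 1. With normexp of the spot and background columns ENAH had 0.26, CD44 0.04 and CTNND1 −0.77. All values here are total signals of a probe and do not tell splice forms apart.

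The calls of ETS1, TJP3, VIM, AXL, MSN and SRSF1, like that of ELF3, were lost without any 1 of the clones, with adjusted p-values of 0.0758 to 0.221, and their directions did not change. They were also lost with no filter on dim probes (adjusted p = 0.0509 to 0.0580) and when normexp was applied to the spot and background columns (0.0503 to 0.287), where the ETS1 difference was 1.24.

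**Figure D4:**
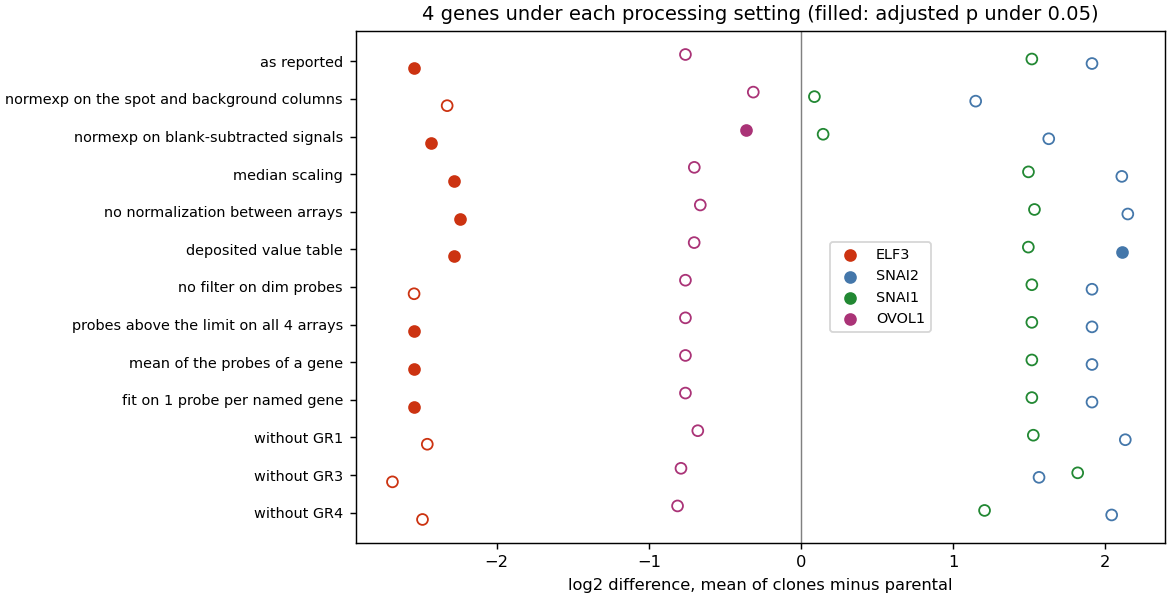
Log2 difference between the clones and the parental array for ELF3, SNAI2, SNAI1 and OVOL1 under each way of processing, filled where the adjusted p was under 0.05. ELF3 stays between −2.69 and −2.24, SNAI2 between 1.15 and 2.15, and SNAI1 stands at 0.09 when normexp is applied to the spot and background columns.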

How the data were processed

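The deposited scanner files hold, per the file headers, a median intensity for every spot without background subtraction, in arbitrary units. A second table by the authors holds intensity values less a blank value and scaled to a common median. It was recomputed from the scanner files, the blank value being the average of the central 90% of 2680 blank spots. Here the same blank value was subtracted, followed by quantile normalization, a floor of 1.52 units and the log2. Of 24460 gene probes, 11 with a faulty spot were left out. A probe entered the fit if it exceeded the limit (2 SD over the blank mean) in parental cells or in each clone. These 22796 probes were fitted with limma 3.58.1 in R 4.3.3 (lmFit and eBayes, two-sided, 2 residual degrees of freedom), with Benjamini-Hochberg adjustment over all of them. The fit was tried on simulated data in which the parental array was given the spread of the clones. That trial therefore cannot check whether the parental array varies as the clones do. A gene stands for its probe with the highest mean signal. Symbols were updated to RefSeq GRCh38.p14 for 2899 probes. The scanner files' background column follows the spot signal, so normexp on it served as an alternative only. The number of arrays limits the precision, and nothing says that replicate cultures were taken. The p-values reflect no more than the spread among the 3 clone arrays, to which the 1 parental array adds nothing.

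The 10 genes and the lists were chosen with earlier results of these data known. Named are the 10 genes, the called genes and the 3 largest differences of each list, CDH1, VIM, and the 5 genes nearest to ELF3. Alternatives were other background corrections, scalings, filters, probe rules, fold thresholds and each clone left out; a fit on 1 probe per gene was added after seeing the data.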

Additional observations from a re-analysis of the deposited data

How the results depend on the processing

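The deposited table changed the scaling together with the probes fitted. Normexp of spot and background columns changed the background source together with the model. Both forms of normexp also added an offset of 50 units and used no floor. Leaving out a clone also moved the probe filter, so that 16634 to 16669 genes were fitted, against 16592 as reported. Each other alternative changed 1 choice. Genes past the limma threshold numbered 674 as reported, 147 with normexp of spot and background columns, 2199 with normexp on blank-subtracted signals, 1020 with median scaling, 208 with no normalization between arrays, 2121 in the deposited table, 2127 among probes above the limit on all arrays and 1189 in the added fit on 1 probe per gene. With no filter on dim probes limma called 0 (5403 at an unadjusted p under 0.05), and with any clone left out 0 to 0 (3545 to 6090 unadjusted). Of the 10 genes limma called 1 as reported, 0 with normexp of spot and background columns (adjusted p = 0.0701 for ELF3, 2 at an unadjusted p under 0.05) and with no filter (0.0580, 2 unadjusted), 0 to 0 with a clone left out (3 to 5 unadjusted), and 2 with normexp on blank-subtracted signals (ELF3 and OVOL1) and in the deposited table (ELF3 and SNAI2). Genes 2-fold apart in all clones numbered 1205, and 319 and 410 under these 2 forms of normexp, 3083 at 1.5-fold and 382 at 3-fold. Of the 10 genes 2 passed that rule, 1 with normexp of spot and background columns (ELF3), 4 at 1.5-fold (with OVOL1 and SNAI1), 1 at 3-fold (ELF3), and 2 to 4 with a clone left out, 4 without GR3 (with SNAI1 and ZEB1). The TWIST1 difference turned to −0.15 with the mean of its probes and to −0.045 without GR3 (range −0.045 to 0.058 with a clone left out), and the cause was not tested. Of 492 gene values over 41 genes, 377 kept direction and side of the threshold, 61 lost a call, 52 gained one and these 2 turned. No normalization moved the median of all genes from −0.02 to 0.09. Median scaling moved the median of the mesenchymal list to 0.10 and that of the other epithelial factors to 0.0088, so neither has a settled sign. SRSF1 was also lost with no normalization (adjusted p = 0.0514) and MSN with the mean of its probes (0.0502). No paired analysis was possible because the parental line has 1 array, so the groups share fewer than 2 replicate numbers. The scanner files give no slide or scan, so no such block was fitted. Signals near the limit, as for SNAI1 and ZEB1, limit what these arrays resolve.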

Other observations

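A further probe bears the symbol SIP1, an older name shared by 4 genes (GEMIN2, NHERF2, SCAF11 and ZEB2), and was not counted as ZEB2. It read 6.69 on the parental array and 7.52, 7.47 and 7.71 on GR1, GR3 and GR4, a difference of 0.88 ± 0.15 with an adjusted p of 0.0644 by limma. Its direction is the opposite of that of the ZEB2 probe.

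The ZEB1 gene has 7 promoter windows in RefSeq's table. The E-box CAGGTG, searched on both strands, was found in 2 of them, beside 20.6% of all promoter windows of this length. The ZEB2 window held none.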
